A study of Mus musculus with 36 samples.

Results

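The comparison asked whether the difference between CX3CR1-Cre and Cre-neg cardiac macrophages was the same in the CCR2neg and in the CCR2pos fraction of wild-type hearts. Its members are the 20 TFEBwt libraries of 36 in the series, 5 in each of 4 groups: CCR2neg Cre-neg, CCR2neg CX3CR1-Cre, CCR2pos Cre-neg and CCR2pos CX3CR1-Cre. They were chosen by genotype alone, and each group holds the TFEBwt numbers 1 to 5, by which the libraries were paired. The quantity reported is the interaction: the CX3CR1-Cre minus Cre-neg difference in CCR2pos, minus the same difference in CCR2neg, on the log2 scale. A negative interaction therefore means a Cre difference that was less positive, or more negative, in CCR2pos cells.

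TFEBwt cells carried no TFEB expression cassette, and the other 16 libraries, TFEB-TG, carried one behind a floxed stop. The growth protocol gives control animals as Cx3cr1-er-Cre with Td-Tomato-LoxSTOP, a tamoxifen-dependent Cre recombinase driven by the Cx3cr1 gene together with a red fluorescent reporter. The design text calls the Cre-neg samples cells without Cre, and the sources used here do not say how those were told from CX3CR1-Cre cells. All animals received tamoxifen for 7 days, then 90 minutes of cardiac ischemia, and macrophages were sorted by CCR2 a further 7 days later. No source used here gives an age. The labels do not say that the libraries come from separate animals, so the p-values measure the spread between these libraries, which may be technical.

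CCR2, the receptor for the chemokine CCL2, brings blood monocytes into injured tissue, and cells that carry it in the heart are largely derived from monocytes. In the uninjured heart, macrophages without CCR2 are largely a resident population that maintains itself locally. The origin of the CCR2neg cells sorted here, after ischemia, was not tested. CX3CR1, the fractalkine receptor, is shared by monocytes and many macrophages, and is a common driver for inducible Cre. Macrophages of either kind can present peptides to CD4 T cells on MHC class II molecules, whose level follows the cell's origin and activation.

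The libraries held 14942156 to 32645783 counts, with a median of 20076057. Values below are CPM, a gene's count relative to the total of its library, after scaling between libraries by the trimmed mean of M-values (TMM). The sort and the labels were visible in the counts. Ccr2 itself was at 73.2 ± 31.5 CPM (SD, n = 5) in CCR2neg Cre-neg, 46.6 ± 18.3 in CCR2neg CX3CR1-Cre, 810 ± 273 in CCR2pos Cre-neg and 724 ± 229 in CCR2pos CX3CR1-Cre, without overlap between fractions. The macrophage genes Csf1r (group means 2512 to 2808 CPM), Cd68 (2014 to 2259) and Adgre1 (2500.2 to 3145) were abundant in all 4 groups. Tfeb, which was not manipulated in these cells, was at group means of 6.04 to 7.82 CPM and had an interaction of -0.17 ± 0.34 (SE). Mitochondrial genes took 0.46 to 1.21% of counts, with group medians of 0.992, 0.66, 0.788 and 0.574% in the order above; the part of this in the results was not tested.

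Of 12744 genes tested with edgeR's quasi-likelihood test, 1 passed an adjusted p of 0.05 for the interaction (0.00785% of genes tested): H2-Eb1, the β chain of the mouse MHC class II molecule I-E. No gene passed with a positive interaction. At an unadjusted p under 0.05 there were 970 genes (7.61%), 463 positive (3.63%) and 507 negative (3.98%). DESeq2's Wald test with the same pairing called 55 genes, 36 positive and 19 negative, including the 10 leading genes of each direction described below. Limma-voom with quality weights called 14, and edgeR without the pairing called 0.

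The Cre difference was itself larger in the CCR2neg fraction. There edgeR called 798 genes (6.26%), 331 higher (2.6%) and 467 lower (3.66%) in CX3CR1-Cre. In CCR2pos it called 111 (0.871%), 62 higher (0.487%) and 49 lower (0.384%). The CCR2pos count in particular rested on the pairing: without it edgeR called 398 genes in CCR2neg and 1 in CCR2pos. The standard errors of both differences were alike, with medians of 0.162 and 0.162, while the median size of the difference over all genes was 0.18 in CCR2neg and 0.13 in CCR2pos. The direction was mostly shared. Of the 798 genes called in CCR2neg, 732 (91.7%) had the same sign in CCR2pos, where their median size was 0.27 against 0.65 in CCR2neg; over all genes the signs matched for 59%. Of the 111 called in CCR2pos, 93 (83.8%) were also called in CCR2neg, all 93 in the same direction. Among the 970 genes at unadjusted p under 0.05 for the interaction, 711 (73.3%) had the larger difference in CCR2neg, against 60.3% of all genes tested. These counts come from the same contrasts as the interaction, and describe it.

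**Figure D1:**
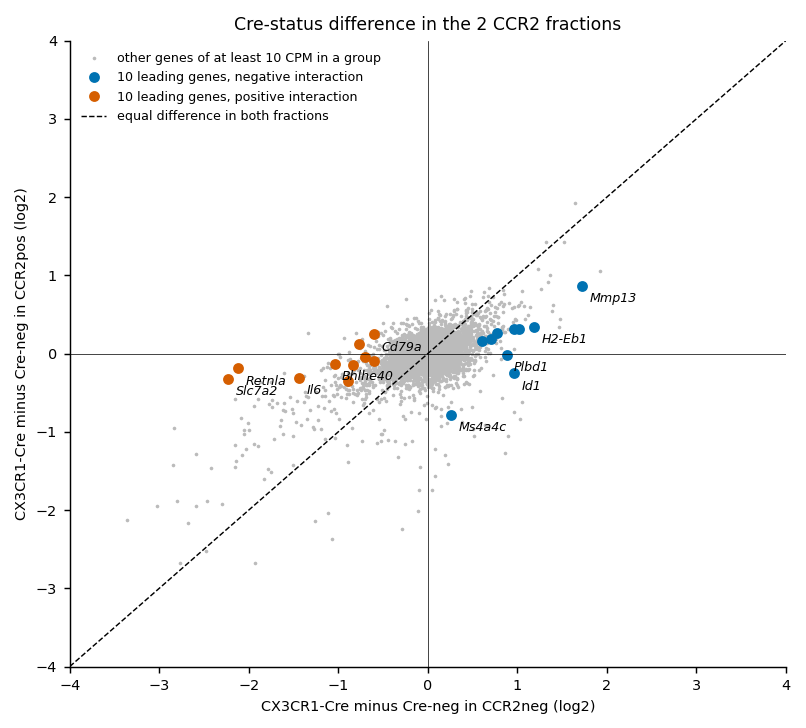
Each point is 1 of 7635 genes of at least 10 CPM in a group (3 lie outside the axes); the x axis is the CX3CR1-Cre minus Cre-neg difference in CCR2neg, the y axis that in CCR2pos, both log2. The 10 leading genes of each direction (coloured) were chosen for their interaction, and so lie off the dashed line of equal differences. Of the 20, 19 lie closer to zero on the y axis than on the x axis, Ms4a4c being the exception.

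MHC class II genes, most of them in the major histocompatibility complex on chromosome 17, held the called gene and several more with a negative interaction. Classical class II molecules are pairs of an α and a β chain that are loaded with peptide in endosomes with the help of the invariant chain and of H2-DM. H2-Eb1 (chr17:34305867-34316674, plus strand, GRCm38, GENCODE vM21) read 1079, 1146, 1326, 1527 and 1322 CPM in CCR2neg Cre-neg libraries 1 to 5, and 2558, 2566, 3101, 3334 and 3023 in CCR2neg CX3CR1-Cre. The CCR2pos libraries read 3045, 3664, 3369, 3093 and 2764 CPM in Cre-neg and 4209, 4016, 3920, 4664 and 3406 in CX3CR1-Cre. Every CCR2neg Cre-neg library lay below all 15 others, and the 2 Cre states did not overlap in CCR2neg (true of 4.01% of genes tested) but did in CCR2pos (where 1.36% of genes did not). The Cre difference was 1.19 ± 0.09 (SE) in CCR2neg and 0.34 ± 0.09 in CCR2pos, and the interaction was -0.85 ± 0.13, with an adjusted p of 0.0262 in edgeR. It was negative in 5 of 5 numbers, from -1.03 to -0.53; 12.0% of all genes had 1 sign in 5 of 5.

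That call depended on the fit while its size did not. The interaction of H2-Eb1 stayed between -0.92 and -0.77 over 34 alternative fits. Its adjusted p was 0.188 in edgeR without the pairing and 0.0993 in a fit over all 36 libraries. It was over 0.05 without number 2, 3, 4 or 5 (up to 0.156), and without any of 8 single libraries: CCR2neg Cre-neg 2 and 3, CCR2neg CX3CR1-Cre 4 and 5, CCR2pos Cre-neg 1, and CCR2pos CX3CR1-Cre 2, 3 and 5 (up to 0.118).

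The chains of the other classical molecule, I-A, followed H2-Eb1 without passing the threshold in edgeR; each was called in 3 of 9 other fits. H2-Ab1 (chr17:34257689-34269419, plus strand), its β chain, read 1351, 1427, 1801, 1898 and 1873 CPM in CCR2neg Cre-neg libraries, 2798, 2986, 3817, 3887 and 3418 in CCR2neg CX3CR1-Cre, 3732, 4182, 4187, 3567 and 3242 in CCR2pos Cre-neg, and 4742, 4598, 5071, 5492 and 3771 in CCR2pos CX3CR1-Cre. H2-Aa (chr17:34282744-34287823, minus strand), its α chain, was at 2847 ± 437, 5528 ± 593, 6543 ± 592 and 8125 ± 897 CPM (SD, n = 5) in the same order of groups. For both genes the CCR2neg Cre-neg libraries lay below those of every other group. Interactions were -0.70 ± 0.14 (edgeR adjusted p 0.104) for H2-Ab1 and -0.65 ± 0.13 (0.107) for H2-Aa, and the CCR2neg differences of 1.02 and 0.96 were called.

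H2-DMb1, the β chain of the peptide exchange factor H2-DM, showed the same order at a lower level. Its group means were 148 ± 13.2, 253 ± 27.3, 277 ± 12.0 and 332 ± 29.4 CPM, and its interaction was -0.52 ± 0.11 (edgeR adjusted p 0.159). Cd74, the invariant chain, lies outside the rule for named genes and was chosen after its values were seen; it went from 20839 to 40347 CPM between Cre states in CCR2neg and from 42624 to 56238 in CCR2pos, an interaction of -0.55 ± 0.13. Ciita, the co-activator that switches class II genes on, was at 21.5, 37.6, 40.0 and 49.7 CPM with -0.52 ± 0.19, and H2-DMa was at -0.34 ± 0.13. Over the 11 class II presentation genes tested, 7 were negative and 1 positive at unadjusted p under 0.05, with a median of -0.52 against -0.01 for all genes. The positive gene was Ctss, the protease that trims the invariant chain (0.24 ± 0.11). H2-Oa, H2-Ob and H2-DMb2, which are typical of B cells, had values of 0.24 ± 0.35, 0.13 ± 0.22 and 0.33 ± 0.17.

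The promoters of H2-Eb1 and H2-Aa are shown because their values ran side by side and class II promoters share a known module, the X and Y boxes, on which RFX factors, NF-Y and CIITA assemble. Each run is the 120 bases before the transcription start in the RefSeq table for GRCm38.p6, written 5′ to 3′ on the gene's strand, and capitals mark GATTGG, the core of the Y box, or its reverse complement CCAATC.
H2-Eb1: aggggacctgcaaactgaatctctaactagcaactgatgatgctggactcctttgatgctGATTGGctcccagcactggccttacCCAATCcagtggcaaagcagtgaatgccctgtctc
H2-Aa: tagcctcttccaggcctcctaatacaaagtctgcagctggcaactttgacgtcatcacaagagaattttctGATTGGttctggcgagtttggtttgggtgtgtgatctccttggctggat
The windows are chr17:34305747-34305866 (plus strand) and chr17:34287824-34287943 (minus strand), each ending just before the first base of the gene. GATTGG begins 60 bases before the start in H2-Eb1 and 49 bases before it in H2-Aa, and H2-Eb1 holds the reverse complement as well, 35 bases before its start. The motif stands on either strand in 3178 of 32851 such windows (9.67%). Of the 3 classical chains looked up, 2 were matched to the table, H2-Ab1 being the other. The α chain of I-E was not looked up. A match of letters is a description and not a bound site.

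**Figure D2:**
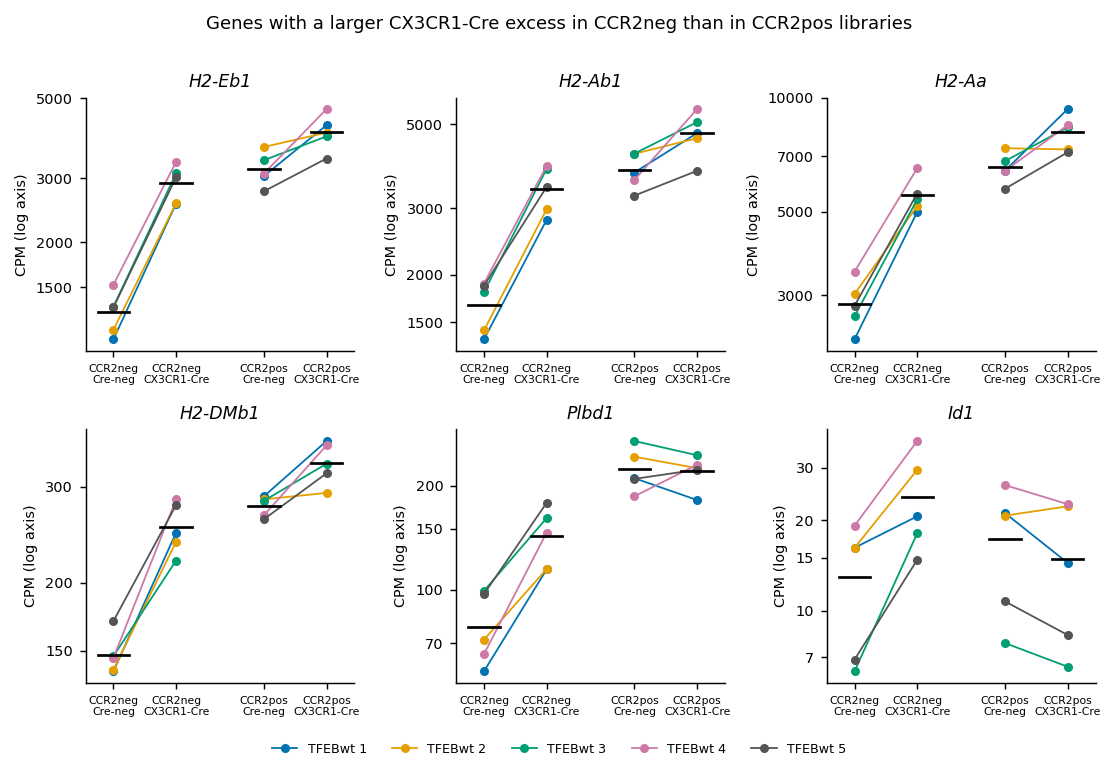
CPM (log axis) of 6 genes with a negative interaction in every TFEBwt library; lines join the 2 libraries of a number within a fraction and black bars are group means (n = 5). In the 4 class II genes the CCR2neg lines rise steeply from the lowest group, and the CCR2pos lines are flatter.

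The other leading negative genes were of mixed function. Plbd1, a lysosomal phospholipase B-like protein, read 58.1, 71.7, 99.3, 65.1 and 97.2 CPM in CCR2neg Cre-neg and 115, 115, 161, 146 and 178 in CCR2neg CX3CR1-Cre. Its CCR2pos readings were 210, 243, 269, 186 and 209 CPM in Cre-neg and 182, 225, 245, 230 and 223 in CX3CR1-Cre. The Cre states separated in CCR2neg and overlapped in CCR2pos. The interaction was -0.90 ± 0.15 (edgeR adjusted p 0.0576), and it passed in 4 of 9 other fits and in 4 of 25 with a number or library left out. Id1, an inhibitor of basic helix-loop-helix factors and a target of BMP signalling, read 16.2, 16.2, 6.28, 19.2 and 6.87 CPM in CCR2neg Cre-neg and 20.6, 29.5, 18.1, 36.8 and 14.8 in CCR2neg CX3CR1-Cre. Its CCR2pos values were 21.2, 20.7, 7.80, 26.2 and 10.7 CPM in Cre-neg and 14.4, 22.3, 6.51, 22.7 and 8.30 in CX3CR1-Cre. All 4 groups overlapped, since the numbers differed among themselves, but within numbers the CCR2neg value was higher in CX3CR1-Cre in 5 of 5. The interaction of Id1 was -1.22 ± 0.21 (edgeR adjusted p 0.0576), past the threshold in the same number of fits of each kind.

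Mmp13, a collagenase, was the only gene among the 10 leading negative ones whose Cre difference was called upward in both fractions. It stood at 46.6 ± 14.8 and 155 ± 51.6 CPM in CCR2neg Cre-neg and CX3CR1-Cre, and at 38.9 ± 15.8 and 69.7 ± 30.4 in CCR2pos (differences 1.72 and 0.87, interaction -0.86 ± 0.17). Fgl2, a fibrinogen-like protein that macrophages secrete, and Kdm6b, an H3K27 demethylase induced by inflammatory signals, had interactions of -0.52 ± 0.10 and -0.44 ± 0.09, with CCR2neg differences of 0.70 and 0.60. Ms4a4c, a membrane protein of monocytes, had another pattern: 40.6 ± 12.1 and 47.1 ± 5.55 CPM in CCR2neg, but 172 ± 53.7 in CCR2pos Cre-neg and 98.8 ± 15.2 in CCR2pos CX3CR1-Cre. It fell by 0.78 with Cre status in CCR2pos and its interaction was -1.04 ± 0.23 (edgeR adjusted p 0.146). Ms4a4c belongs to a cluster of related genes, and reads of 50 bases may be split among them. The 9 leading negative genes beside H2-Eb1 did not pass the threshold in edgeR, where their adjusted p was 0.0576 to 0.159, and passed it in DESeq2. In all 10 the 5 numbers agreed in sign, and in 7 the CCR2neg Cre-neg group lay farthest from the other 3, as it did in 29.0% of all genes. These 10 were chosen by their interaction in the same libraries, so both counts follow in part from that choice and only describe the genes.

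The 10 leading genes with a positive interaction were not called in edgeR and were all called in DESeq2. In edgeR they had a Cre difference that was called and downward in CCR2neg in 10 of 10 (3.66% of all genes). It was called in CCR2pos in 0 of 10 (0.871% of all genes). The 10 were chosen by the difference between these contrasts, so this split follows in part from the choice. Bhlhe40, a transcription factor that supports macrophage proliferation and represses Il10, read 286, 570, 555, 329 and 518 CPM in CCR2neg Cre-neg and 219, 286, 216, 172 and 187 in CCR2neg CX3CR1-Cre. In CCR2pos it read 270, 434, 425, 329 and 339 CPM in Cre-neg and 305, 394, 366, 294 and 270 in CX3CR1-Cre. Within numbers it was lower in CX3CR1-Cre in all 5 CCR2neg pairs and in 4 of 5 CCR2pos pairs. The differences were -1.04 ± 0.12 and -0.13 ± 0.12, and the interaction 0.91 ± 0.17 (edgeR adjusted p 0.0835).

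Slc7a2, a cationic amino acid transporter that supplies arginine, and Retnla, a secreted marker of alternative activation, had the largest values among these 10. Slc7a2 read 33.8, 184, 48.8, 52.5 and 130 CPM in CCR2neg Cre-neg and 11.9, 33.2, 10.9, 8.99 and 22.7 in CCR2neg CX3CR1-Cre. Its CCR2pos values were 4.43, 63.7, 9.86, 8.44 and 17.8 CPM in Cre-neg and 3.11, 49.6, 11.9, 5.74 and 11.0 in CX3CR1-Cre. The Cre states did not overlap in CCR2neg, and number 2 was the highest in every group. Retnla read 439, 2464, 229, 329 and 168 CPM in CCR2neg Cre-neg and 54.2, 636, 105, 65.1 and 39.6 in CCR2neg CX3CR1-Cre. In CCR2pos it read 232, 1546, 154, 456 and 216 CPM in Cre-neg and 154, 1201, 379, 208 and 205 in CX3CR1-Cre. Number 2 again stood far above the others in all 4 groups, and within numbers the CCR2neg value was lower in CX3CR1-Cre in 5 of 5. Interactions were 1.91 ± 0.37 for Slc7a2 (edgeR adjusted p 0.0835) and 1.93 ± 0.40 for Retnla (0.131). The 17 alternative activation genes tested, Retnla among them, had 4 positive and 1 negative at unadjusted p under 0.05 in edgeR. Over all genes these shares were 3.63% and 3.98%. Of the 17, 9 lay above 0 and 8 below, with a median of 0.09. Slc7a2 shares exon sequence with a gene on the other strand, and the libraries do not keep strand. The same holds for Bhlhe40, Nedd9, Kdm6b and Ms4a4c among the leading genes, and for Cx3cr1.

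**Figure D3:**
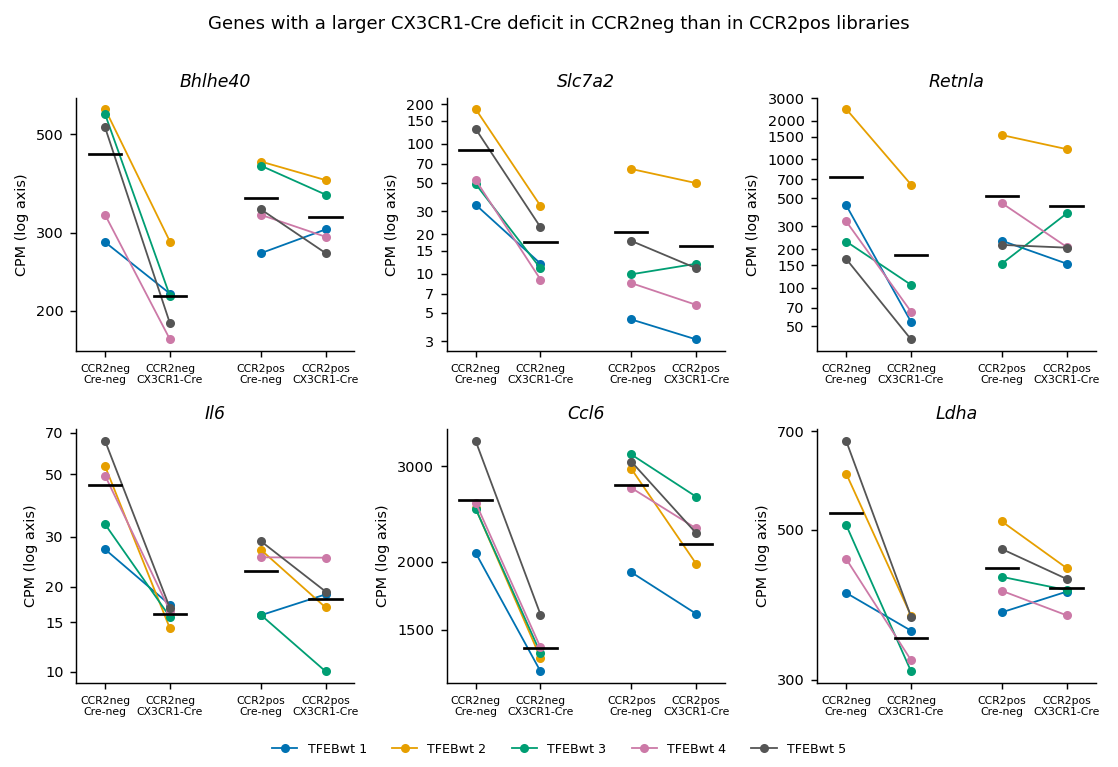
CPM (log axis) of 6 genes with a positive interaction in every TFEBwt library, drawn as for the negative genes. The CCR2neg lines fall in all 5 numbers for each gene, and the CCR2pos lines are flatter or of mixed direction.

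Il6, the inflammatory cytokine, went from 45.7 ± 15.5 to 16.1 ± 1.19 CPM in CCR2neg and from 22.6 ± 6.30 to 18.1 ± 5.48 in CCR2pos (interaction 1.12 ± 0.25). Ccl6, a chemokine of myeloid cells, went from 2600 ± 457 to 1388 ± 129 CPM and from 2766 ± 501 to 2158 ± 386 (0.54 ± 0.12). Smpdl3a, an acid sphingomyelinase-like phosphodiesterase, had 0.69 ± 0.14, Def8, which takes part in lysosome positioning, 0.90 ± 0.19, and Nedd9, an adhesion scaffold, 0.65 ± 0.14. Of 28 inflammatory cytokine and chemokine genes tested, Il6 among them, 5 were positive and 4 negative at unadjusted p under 0.05 in edgeR. Their median was -0.09. In CCR2neg 10 of the 28 were called higher in CX3CR1-Cre and 7 lower, against 2.6% and 3.66% of all genes. Cd79a, a subunit of the B cell receptor, read 31.8 ± 10.6 and 21.6 ± 10.5 CPM in CCR2neg and 29.7 ± 12.1 and 34.8 ± 10.1 in CCR2pos (0.85 ± 0.16). Of 13 B cell genes tested, 4 were positive at unadjusted p under 0.05, Cd79a among them, and 1 negative. The summed B cell list ranged from 646 to 1281 CPM in CCR2neg Cre-neg, 795 to 1316 in CCR2neg CX3CR1-Cre, 813 to 1319 in CCR2pos Cre-neg and 895 to 1423 in CCR2pos CX3CR1-Cre. B cells also carry class II molecules, and the part of B cell RNA in the class II values was not tested.

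Cx3cr1, whose promoter drives the Cre, was higher in CX3CR1-Cre cells of both fractions. It read 195, 260, 130, 238 and 229 CPM in CCR2neg Cre-neg and 530, 469, 257, 440 and 428 in CCR2neg CX3CR1-Cre. In CCR2pos it read 303, 305, 174, 291 and 317 CPM in Cre-neg and 565, 477, 276, 368 and 438 in CX3CR1-Cre. Number 3 was the lowest in every group, and each number was higher in CX3CR1-Cre in both fractions, while the Cre states overlapped across numbers. The differences of 1.01 ± 0.09 and 0.61 ± 0.09 were both called, and the interaction of -0.40 ± 0.13 was not (edgeR p 0.0063, adjusted p 0.391). Ccr2 had an interaction of 0.50 ± 0.31 (adjusted p 0.728). In bulk libraries fewer cells of a type and less RNA per cell cannot be told apart, for these genes as for the others.

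Gene lists were described by their counts at unadjusted p under 0.05 and by their medians, beside 3.63% positive, 3.98% negative and a median of -0.01 over all genes; outside H2-Eb1 no member passed the adjusted threshold in edgeR. Glycolysis enzymes had 9 of 20 positive, 0 negative and a median of 0.31. Ldha, which makes lactate, read 403, 605, 508, 453 and 677 CPM in CCR2neg Cre-neg and 354, 373, 309, 320 and 372 in CCR2neg CX3CR1-Cre, then 377, 514, 426, 406 and 468 and 405, 439, 407, 373 and 423 in the CCR2pos groups. The Cre states were apart in CCR2neg and overlapped in CCR2pos. Its interaction was 0.51 ± 0.12 (edgeR adjusted p 0.190), and those of Aldoa, Tpi1, Eno1 and Pkm, which act upstream of it, were 0.45 ± 0.12, 0.38 ± 0.12, 0.38 ± 0.14 and 0.44 ± 0.16. In CCR2neg 8 of the 20 enzymes were called lower in CX3CR1-Cre, against 3.66% of all genes. In CCR2pos none was, where only 0.384% of all genes were called lower. Oxidative phosphorylation genes had 0 positive and 1 negative (Uqcrfs1, -0.72 ± 0.34) of 25, and a median of 0.08.

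Interferon-response genes lay on the negative side: 7 of 27 were negative, 0 positive, and 26 of 27 had a value below 0, with a median of -0.25. Isg15, a ubiquitin-like interferon product, was at 47.6 ± 9.47 and 65.8 ± 7.66 CPM in CCR2neg and at 91.2 ± 18.0 and 86.8 ± 14.4 in CCR2pos (interaction -0.56 ± 0.18). Irf7, the factor that amplifies interferon production, had -0.43 ± 0.16 and Mx1, an antiviral GTPase, -0.50 ± 0.17. In CCR2neg 5 of the 27 were called higher in CX3CR1-Cre, against 2.6% of all genes. In CCR2pos none was, where only 0.487% of all genes were called higher. Immediate-early and stress genes, which respond to tissue dissociation, had 4 of 28 negative and a median of -0.14; Zfp36, which destabilises cytokine mRNAs, was the one with the smallest p (-0.27 ± 0.10). Their part in the class II and interferon values was not tested. Proliferation genes had 0 of 28 in either direction.

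Lipid and lysosome genes lay on the positive side. Lysosomal hydrolases had 7 positive and 0 negative of 36, with a median of 0.12, led by Ctsd, the aspartic protease cathepsin D (7851 ± 1494, 5130 ± 926, 6217 ± 761 and 5756 ± 513 CPM, interaction 0.50 ± 0.12). Lipid-handling genes had 5 positive and 1 negative of 27, with a median of 0.21. Leaving out a number or a library gave 4 to 12 positive hydrolases and 2 to 9 positive lipid genes, with medians of 0.09 to 0.16 and 0.14 to 0.28. Spp1, the matrix protein osteopontin of injury macrophages, read 1759, 5139, 2744, 2098 and 4704 CPM in CCR2neg Cre-neg and 985, 1397, 626, 899 and 1104 in CCR2neg CX3CR1-Cre. In CCR2pos it read 1166, 2102, 1398, 1359 and 2192 CPM in Cre-neg and 761, 1122, 670, 830 and 1123 in CX3CR1-Cre. Spp1 fell with Cre status in both fractions, by 1.64 and by 0.85, and its interaction was 0.79 ± 0.20. Chemokine and adhesion receptors had 7 positive and 2 negative of 24, among them the β2 integrin chain Itgb2 (0.62 ± 0.15), its partner Itgam (0.44 ± 0.16) and Itgb7 (0.95 ± 0.24). Efferocytosis and complement genes had 4 positive and 1 negative of 25; the negative one was Axl, a receptor for apoptotic cells, at -0.51 ± 0.13, and C3 and C4b were at 0.53 ± 0.15 and 0.70 ± 0.22.

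Markers of macrophage subsets were uneven between the groups. Serous cavity macrophages, which live in the peritoneal, pleural and pericardial spaces, express Alox15, Prg4, Selp and F5. Of the 18 genes listed for them, 6 were positive and 1 negative, with a median of 0.72. In CX3CR1-Cre 13 were called lower in CCR2neg and 5 in CCR2pos, against 3.66% and 0.384% of all genes. With a number or library left out, 3 to 9 were positive and the median was 0.60 to 0.99. Their summed level was 1796 to 4585 CPM in CCR2neg Cre-neg, 405 to 1072 in CCR2neg CX3CR1-Cre, 605 to 2472 in CCR2pos Cre-neg and 390 to 1704 in CCR2pos CX3CR1-Cre. The Cre states overlapped in CCR2pos and did not in CCR2neg. The negative gene was Wt1, a factor of mesothelial and epicardial cells (-4.21 ± 1.05), at group means of 0.0682 to 0.841 CPM. Alox15, a lipoxygenase, was at 151 CPM in CCR2neg Cre-neg and 20.9, 11.1 and 3.91 in the other groups, while Gata6, the factor that defines the peritoneal cells, was at 0.675 to 1.38 CPM. Retnla and Fn1, the matrix protein fibronectin (1.08 ± 0.26), are on this list and on others as well. Resident cardiac macrophage markers had 3 positive and 0 negative of 19 with a median of 0.19, led by the endothelin receptor Ednrb (0.86 ± 0.25). Monocyte markers had 3 positive and 3 negative of 20. In CX3CR1-Cre 12 of these 20 were called lower and 2 higher in CCR2neg, against 3.66% and 2.6% of all genes. In CCR2pos 7 were called lower and 2 higher, against 0.384% and 0.487%. The median summed level of the monocyte list was 3977 CPM in CCR2neg Cre-neg and 1903 in CCR2neg CX3CR1-Cre. It was 3081 CPM in CCR2pos Cre-neg and 2596 in CCR2pos CX3CR1-Cre. How far the mix of subsets moves the other gene groups was not tested.

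Genes of non-macrophage heart cells had negative values. Fibroblast markers had 8 negative of 17 (median -1.10), endothelial markers 7 of 14 (-1.17) and mural markers, of pericytes and smooth muscle, 4 of 11 (-1.45), with 0 positive in all 3. Col3a1, a fibrillar collagen, read 14.2, 10.7, 13.5, 87.2 and 14.3 CPM in CCR2neg Cre-neg and 20.9, 59.7, 10.1, 82.4 and 46.3 in CCR2neg CX3CR1-Cre. The CCR2pos values were 38.4, 16.8, 13.2, 123 and 26.5 CPM in Cre-neg and 17.7, 14.1, 8.99, 23.7 and 15.7 in CX3CR1-Cre. All groups overlapped, and number 4 was the highest in each. Its interaction was -1.95 ± 0.49, and those of Acta2 of smooth muscle and the VEGF receptor Kdr were -1.90 ± 0.46 and -1.55 ± 0.46. In the TFEB-TG libraries the values were 0.35 ± 0.72 for Col3a1, -0.78 ± 0.73 for Acta2 and -0.61 ± 0.50 for Kdr. The summed mural list was 12.5 to 22.9 CPM in CCR2pos CX3CR1-Cre and 18.2 to 110, 18.3 to 79.7 and 12.6 to 94.3 in CCR2neg Cre-neg, CCR2neg CX3CR1-Cre and CCR2pos Cre-neg. Without number 4 the medians of the 3 lists were -1.16, -0.90 and -1.50. Over 25 fits that leave out a number or a library, the fibroblast median ranged from -1.52 (without CCR2neg Cre-neg 4) to -0.70 (without number 2), with 4 to 14 members negative at unadjusted p under 0.05. The endothelial median ranged from -1.70 (without CCR2neg Cre-neg 3) to -0.79 (without number 5), with 2 to 12 negative, and the mural median from -1.89 (without number 2) to -1.10 (without number 5), with 2 to 6 negative. Cardiomyocyte markers summed to 71.5 to 202 CPM and had 1 negative of 15 (Mb, -0.75 ± 0.36, but 0.51 ± 0.44 in TFEB-TG). Neutrophil genes had 1 positive of 8 tested of 18 listed (S100a8, 1.83 ± 0.76, with group means of 0.667 to 5.28 CPM), T and NK genes 2 positive and 1 negative of 18, and erythroid and mast cell genes none of 5 and 4 tested. The part of these cells in the leading genes was not tested.

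**Figure D4:**
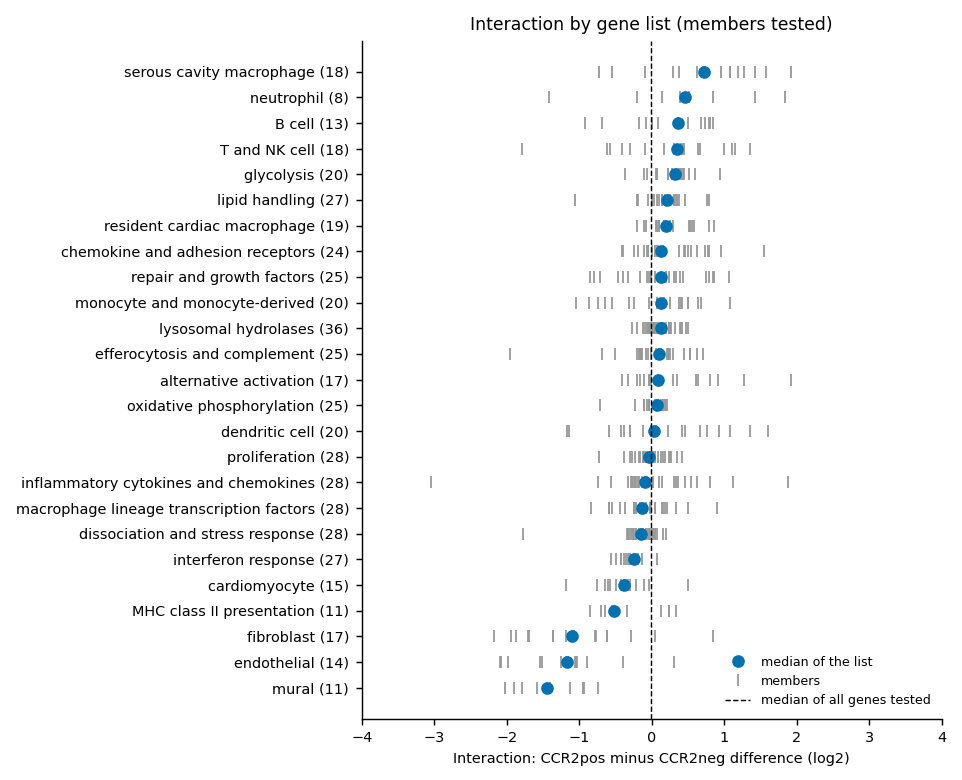
Interaction (log2) of the members (grey ticks) and their median (blue) for 25 gene lists with at least 8 members tested; 2 members lie outside the axis, and the dashed line is the median of all genes. Serous cavity, neutrophil, B cell, T and NK cell and glycolysis lists lie to the right, and class II, interferon, cardiomyocyte and stromal lists to the left.

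The matching contrast in the 16 TFEB-TG libraries, 4 to a group, gave another set of samples for the leading genes. It was added after the wild-type values were seen. TFEB-TG cells carry the cassette for TFEB, a regulator of lysosome genes, which Cre switches on. Their Cre-positive groups are labelled mac-TFEB, and differ from wild-type CX3CR1-Cre by more than Cre. Tfeb read 21.1 CPM in CCR2neg Cre-neg and 188 in CCR2neg mac-TFEB, then 38.8 and 158 in CCR2pos, an interaction of -1.11 ± 0.35. The part of this in the contrast was not tested. In 1 edgeR fit over 36 libraries no gene was called for the interaction in TFEB-TG, with 693 (5.42%) at unadjusted p under 0.05. All 20 leading genes had the wild-type sign there, against 55.2% of all genes tested and 69.6% of the 970. Of the 20, 11 had an unadjusted p under 0.05, and 19 had a smaller size than in wild type. The 20 were chosen by their wild-type interaction, so a smaller size in other samples follows in part from that choice. H2-Eb1 went from 645 to 1135 CPM with Cre status in CCR2neg and from 2586 to 2896 in CCR2pos, an interaction of -0.63 ± 0.21 (edgeR adjusted p 0.636). Mmp13 (-0.92 ± 0.22) and Retnla (1.93 ± 0.49) were nearest to their wild-type values of -0.85 ± 0.20 and 1.93 ± 0.43 in that fit. The difference between the genotypes was called for 0 genes in edgeR, with 483 (3.77%) at unadjusted p under 0.05. For H2-Eb1 it was 0.21 ± 0.28, and the lowest unadjusted p among the 20 genes was 0.0261, for Def8, with all adjusted p at 0.996 or above.

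**Figure D5:**
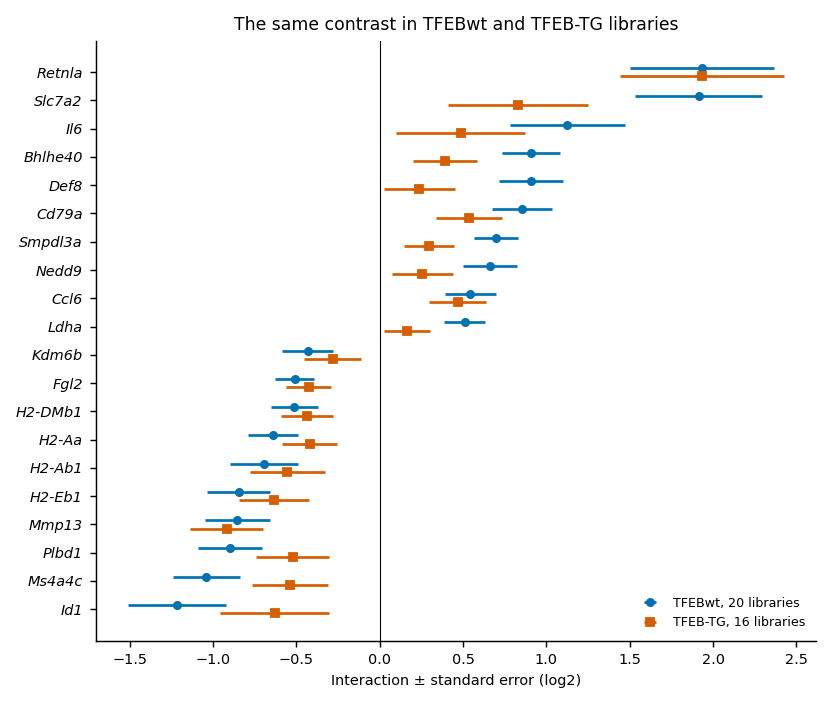
Interaction (log2) with its standard error for the 20 leading genes in the 20 TFEBwt libraries (circles) and the 16 TFEB-TG libraries (squares), from 1 fit over 36 libraries. Both values lie on the same side of zero for all 20 genes, and Def8, Nedd9, Ldha and Slc7a2 are among those with a smaller value in TFEB-TG. The genes were chosen by their wild-type values, and smaller values elsewhere follow in part from that choice.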

How the data were processed

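Sorted cells gave 1 to 50 ng of RNA, whose polyA fraction was amplified (SMARTer Ultra Low) and sequenced as single, non-strand-specific reads of 50 bases on a HiSeq-3000, per the labels' protocols. The authors deposited whole-number read counts per gene for 12795 genes; the submitters' processing notes name TopHat2 2.0.10, Bowtie2, HTSeq, DESeq, edgeR and GRCm38, with no parameters. Genes that share exons with a gene on the other strand are uncertain, since strand was not kept.

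Counts were fitted with edgeR 4.0.16 (R 4.3.3): TMM scaling, filterByExpr at a minimum count of 10 (51 genes removed), a quasi-likelihood F-test on 4 group means plus a block of 5 TFEBwt numbers, and Benjamini-Hochberg adjustment over 12744 genes. Standard errors were taken as |log2 change| / √F. The CPM and log2 values are not the authors'; they were calculated from the counts they deposited. DESeq2 1.42.0 and limma 3.58.1 served as alternatives, and the scripts were tested on simulated counts. Libraries held 14942156 counts or more; the common dispersion between them was 0.0444, and genes of few counts carry counting error besides. Within groups no library was a copy of another: chi-square over its degrees of freedom was 20.0 to 76.5 in 40 pairs.

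The labels give the numbers but not what they stand for. Deviations from the group means correlated between same-numbered libraries in 29 of 30 pairs at over 0.1 (lowest 0.0877). Xist, the RNA of the inactive X chromosome, was at 0.209 to 0.395 CPM in the 4 libraries of number 1 and at 71.1 to 114 in the others.

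Named genes are Cx3cr1, Ccr2, Tfeb, called interaction genes filled to 10 per direction by smallest unadjusted p among genes of at least 10 CPM in a group, and the member of each list with the smallest p; others named are list members whose counts are described. Members and lists were chosen with earlier results of these data known. Gene positions are from GENCODE vM21 and promoters from RefSeq.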

Additional observations from a re-analysis of the deposited data

Results flagged for a closer look

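Among 205 sets of 5 values for named genes, 25 had a sample far from the other 4. For independent sets of normal values chance would give about 1 in 20, or 10.2. The sets here share libraries and values, and CPM need not be normal, so 10.2 is only a rough guide. Retnla was high in number 2 in all 4 groups, at 2464 CPM (CCR2neg Cre-neg), 636.1 (CCR2neg CX3CR1-Cre), 1546 (CCR2pos Cre-neg) and 1201 (CCR2pos CX3CR1-Cre), and Slc7a2 in number 2 of both CCR2pos groups, at 63.69 in Cre-neg and 49.6 in CX3CR1-Cre. Number 4 was high for genes of other heart cells: Col3a1 at 87.19 CPM (CCR2neg Cre-neg) and 123.3 (CCR2pos Cre-neg), and in CCR2neg Cre-neg Acta2 at 24.98, Kdr at 11.42 and Mb at 9.218. Number 3 of CCR2pos Cre-neg was high for Cd24a (20.69) and low for Cx3cr1 (174.4), and number 3 of CCR2pos CX3CR1-Cre high for Ednrb (543.4). Number 1 was high for Cd79a in CCR2pos Cre-neg (51.3), for Ednrb in CCR2neg Cre-neg (587.6) and for Fgl2 in CCR2pos CX3CR1-Cre (170.8), and low for Smpdl3a in CCR2pos CX3CR1-Cre (91.31). Number 5 was high for H2-DMb1 in CCR2neg Cre-neg (170.0) and for S100a8 in CCR2neg CX3CR1-Cre (2.239) and CCR2pos Cre-neg (5.562), and low for Zfp36 in CCR2pos CX3CR1-Cre (3050 CPM). Of the differences of differences by number, in log2(CPM + 1), number 1 stood apart for Plbd1 (-1.18) and Zfp36 (-0.10) and number 4 for Axl (-0.65). The Cre difference of H2-Eb1 differed between the fractions by the interaction test in edgeR (-0.85, adjusted p 0.0262).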

How the results depend on the processing

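With the replicate block of TFEBwt numbers edgeR called 1 gene for the interaction, 798 for Cre status in CCR2neg and 111 in CCR2pos; with no replicate block it called 0, 398 and 1. A block of number within fraction called 11 genes for the interaction and 181 in CCR2pos, and the number as a random effect in limma-voom called 11 in CCR2pos. A fit over 36 libraries called 0 genes for the interaction (1094 at unadjusted p under 0.05), DESeq2's Wald test 55 (255 in CCR2pos), limma-voom with quality weights 14 (311 in CCR2pos) and a stricter filter, with 7677 genes tested, 10. The cause of these shifts was not tested. Leaving out 1 number gave 0 to 3 genes for the interaction, 385 to 767 in CCR2neg and 21 to 108 in CCR2pos. Leaving out 1 library gave 0 to 10, 525 to 964 and 46 to 138. The interaction count was 0 without numbers 2 to 5 and without the 8 libraries named beside H2-Eb1, 10 without CCR2neg CX3CR1-Cre 1 and 5 without CCR2neg Cre-neg 1. It was 3 without number 1, CCR2neg Cre-neg 5, CCR2neg CX3CR1-Cre 3 or CCR2pos Cre-neg 3, and 2 without CCR2neg CX3CR1-Cre 2, CCR2pos Cre-neg 5 or CCR2pos CX3CR1-Cre 1. In CCR2neg the counts were 385 without number 5, 484 without number 2 and 525 without CCR2neg CX3CR1-Cre 5. In CCR2pos they were 52, 43, 71 and 21 without numbers 1, 2, 4 and 5, 63, 53 and 46 without Cre-neg 1, 3 and 5, and 68 and 56 without CX3CR1-Cre 1 and 5. The wild-type interaction kept its sign for each of the 41 named genes in every log2 fit run. In the TFEB-TG contrast Col3a1, Mb, Kit, Ccna2, Ccr2 and Hbb-bt had the sign opposite to wild type. On the linear scale Ccr2 alone changed sign, to -59.2 CPM against 0.50 in log2. The TFEB-TG contrast and its difference from wild type gave 0 genes with and without the block and without each TFEB-TG number. Medians of the T and NK, dendritic, erythroid and proliferation lists changed sign in some fits. The median standard error was 0.23 for all genes and 0.16 at 10 CPM or more, and these errors limit which interactions could be called.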
